A study of Rattus norvegicus with 6 samples.

Results

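The nuclear genes of the respiratory chain and the tricarboxylic acid (TCA) cycle were taken as a list of 45 symbols, chosen by name. The list holds 19 subunits of complex I, 4 of complex II, 6 genes of complex III and cytochrome c and 5 of complex IV. A further 11 genes were listed under the TCA cycle, among them Mdh1, whose enzyme is cytosolic. Each gene was read on its probe set of highest mean signal, among probe sets that the array's annotation maps to that gene alone. Such a probe set was found for 41 of the 45 symbols, out of 14217 genes named on the array. Ndufa10, Uqcrb and Cycs appeared only on probe sets that name several genes, and Fh was not listed, so these 4 have no value here. All 41 passed the filter on low signals and were tested together with the other genes of the table, 10037 in all.

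The series profiled 3Y1, an established rat line derived from embryonic fibroblasts, with and without MUC1-CD, the part of the transmembrane mucin MUC1 that lies in the cytoplasm. The Vector in vitro group was 3Y1 cells stably transfected with an empty vector and kept in culture. The MUC1-CD in vitro group was 3Y1 cells stably transfected to express MUC1-CD, kept in the same serum-containing medium. The MUC1-CD in vivo group was tumors that the MUC1-CD cells formed under the skin of the hindlimbs of female athymic mice, and the age of the mice was not given in the sources used here. Each group had 2 Affymetrix rat genome arrays that the labels call biological replicates, 6 in all. Whether each line was a clone or a pool was not given in the sources used here. Cultures were lysed in TRIzol, whereas the RNA of tumors came from frozen, preserved and homogenized tissue and passed over columns as well, so how the cells grew and how their RNA was made cannot be told apart. Tumors also hold mouse host cells, and the array's probes were designed for rat; whether they also read mouse RNA was not tested.

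Complexes I to IV of the inner mitochondrial membrane pass electrons from NADH and succinate to oxygen and build the proton gradient that ATP synthase uses. The TCA cycle in the matrix oxidizes acetyl-CoA and supplies the NADH and succinate. Most subunits are encoded in the nucleus, among them core subunits that carry the redox centers and accessory subunits that stabilize the complexes, and their transcripts are found in most cell types, fibroblasts included.

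Values are MAS5 signals, a probe set's brightness on a linear scale, and signals of different probe sets cannot be ranked against each other. Mean signals of the 41 genes ran from 251.8 to 15713, all above the filter of 61.6. Each change is given on the scale of log2(signal + 16) as the mean of the group in question minus that of the group it is set against, ± its standard error (SE) in limma's fit to all 6 arrays, and adjusted p values are limma's after Benjamini-Hochberg adjustment over all tested probe sets, called at 0.05. The scale understates changes of genes of low signal, and p values measure only the spread between the 2 arrays of a group.

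The Vector arrays stood apart from the others in RNA quality. The 3' signal of Gapdh exceeded its 5' signal by ratios of 11.5 and 17.8 on the Vector arrays, against 1.11 to 1.18 on the other 4. For beta-actin the Vector arrays had ratios of 4.15 (replicate 1) and 41.7 (replicate 2), against 2.97 to 3.37 elsewhere. Among the 41 genes, 8 differed by over 0.5 log2 between the Vector arrays, against 1 between the MUC1-CD in vitro arrays and 1 between the tumor arrays. These signs of RNA quality coincide with the Vector label, so a difference by label and one by RNA quality cannot be told apart in any comparison with Vector. All 9 fibroblast markers passed the filter, with Vim at 26145 to 27322 in Vector culture, 20239 to 21146 in MUC1-CD culture and 23797 to 25074 in tumors. Of these 9, 6 were lower in MUC1-CD culture than in Vector (Col1a1, Col3a1 and Sparc by 2.63-, 2.78- and 1.97-fold) and Thy1 was 3.53-fold higher, and 3 were higher in tumors than in MUC1-CD culture; their part in the results was not tested. The probe set for rat Muc1 gave 83.2 to 92.6 in Vector, 26.7 to 43.5 in MUC1-CD culture and 51.7 to 61.3 in tumors, and whether it reads the transfected sequence was not given, so it does not check the labels.

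Promoters were searched for binding motifs of 3 factor families known to control nuclear genes of the respiratory chain, with motifs and printed promoters chosen after the expression values were seen. RefSeq windows of 300 bases, from 250 before to 50 after the start on the GRCr8 assembly, were found for 39 of the 45 genes and not for Cox6c, Cyc1, Idh3a, Ndufa8, Ndufb9 and Uqcrb. The 4 below are shown for genes whose changes recur in the results: Ndufa4, the largest fall in tumors, on chr4:40975510-40975809 (minus strand), Ndufs1, higher in MUC1-CD culture and lower in tumors, on chr9:72073556-72073855 (minus strand), Cox5b, a fall in MUC1-CD culture, on chr9:46417587-46417886 (plus strand), and Ndufs7, a rise, on chr7:10110449-10110748 (minus strand). Capitals mark a match to CCGGAAG (the ETS core, which GABP binds), AAGATGGCG (YY1) or the palindromic NRF1 motif on either strand, and sequences run 5′ to 3′ in the gene's direction.
Ndufa4: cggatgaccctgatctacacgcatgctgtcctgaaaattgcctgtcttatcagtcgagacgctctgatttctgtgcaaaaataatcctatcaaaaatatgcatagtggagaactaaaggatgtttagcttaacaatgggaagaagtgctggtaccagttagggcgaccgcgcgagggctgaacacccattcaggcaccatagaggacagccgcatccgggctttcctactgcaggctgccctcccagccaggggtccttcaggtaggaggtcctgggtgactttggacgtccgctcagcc
Ndufs1: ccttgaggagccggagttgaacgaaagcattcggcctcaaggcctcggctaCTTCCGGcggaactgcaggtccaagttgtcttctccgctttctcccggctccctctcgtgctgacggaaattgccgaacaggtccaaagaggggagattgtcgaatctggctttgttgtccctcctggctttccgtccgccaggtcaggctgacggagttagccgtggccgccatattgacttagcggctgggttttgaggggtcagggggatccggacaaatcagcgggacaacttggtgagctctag
Cox5b: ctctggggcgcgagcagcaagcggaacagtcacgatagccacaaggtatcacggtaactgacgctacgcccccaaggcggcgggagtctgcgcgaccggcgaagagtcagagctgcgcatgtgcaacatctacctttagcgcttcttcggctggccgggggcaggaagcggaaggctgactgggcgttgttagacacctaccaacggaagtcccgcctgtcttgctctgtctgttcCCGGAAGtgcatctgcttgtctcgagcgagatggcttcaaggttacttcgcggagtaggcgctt
Ndufs7: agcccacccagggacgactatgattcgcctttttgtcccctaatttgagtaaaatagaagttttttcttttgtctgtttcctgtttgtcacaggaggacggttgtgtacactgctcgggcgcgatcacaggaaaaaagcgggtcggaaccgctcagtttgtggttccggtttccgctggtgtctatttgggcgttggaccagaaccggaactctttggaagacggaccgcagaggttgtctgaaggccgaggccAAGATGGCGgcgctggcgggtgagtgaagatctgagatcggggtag
CCGGAAG stood in 11 of the 39 promoters (28.2%), against 8.75% of all 33469 promoters in the table and 18.3% of the 9404 promoters of genes tested on the arrays. AAGATGGCG stood in 7 (17.9%, against 1.73% of all and 3.84% of tested genes), in 6 of them within 26 bases after the start. The NRF1 motif stood in 5 (12.8%, against 4.25% and 10.1%). The ETS and YY1 motifs can overlap by the letters AAG, but no matches overlapped in these promoters. These matches are descriptions of letters and say nothing of binding in these cells. Of genes lower in MUC1-CD culture, 4 of the 7 with a window held CCGGAAG and 0 of 7 held AAGATGGCG. CCGGAAG and AAGATGGCG each stood in 1 of 5 genes that were higher and in 6 of 24 not called. The NRF1 motif stood in 1 of 7 lower, 0 of 5 higher and 4 of 24 not called. In tumors against culture, CCGGAAG stood in 1 of 6 lower genes and 10 of 30 not called, and AAGATGGCG in 0 of 6 and 7 of 30. In tumors against Vector, CCGGAAG stood in 7 of 16 lower, 1 of 5 higher and 3 of 15 not called. AAGATGGCG stood there in 1 of 16, 1 of 5 and 5 of 15, and the NRF1 motif in 3 of 16, 0 of 5 and 2 of 15. In tumors against culture the NRF1 motif stood in 0 of 6 lower and 5 of 30 not called. These differences were not tested.

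MUC1-CD cells in culture differed from Vector cells in both directions. Subunits of complexes I and IV held 6 and 3 of the 11 falls, but they were also 18 and 5 of the 41 measured genes. The rises were spread over complex I, complex II and the TCA cycle. Of the 41 genes, 5 rose and 11 fell, or 39.0%, against 46.1% of all tested genes (21.2% higher and 24.9% lower). Their median change was -0.14, against -0.04 for all tested genes. Both MUC1-CD arrays lay below both Vector arrays for 17 genes and above both for 9, against 39.1% and 33.9% of all genes. Of the 41 genes 12.2% were called higher and 26.8% lower, and these shares were not tested against those of all genes.

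**Figure D1:**
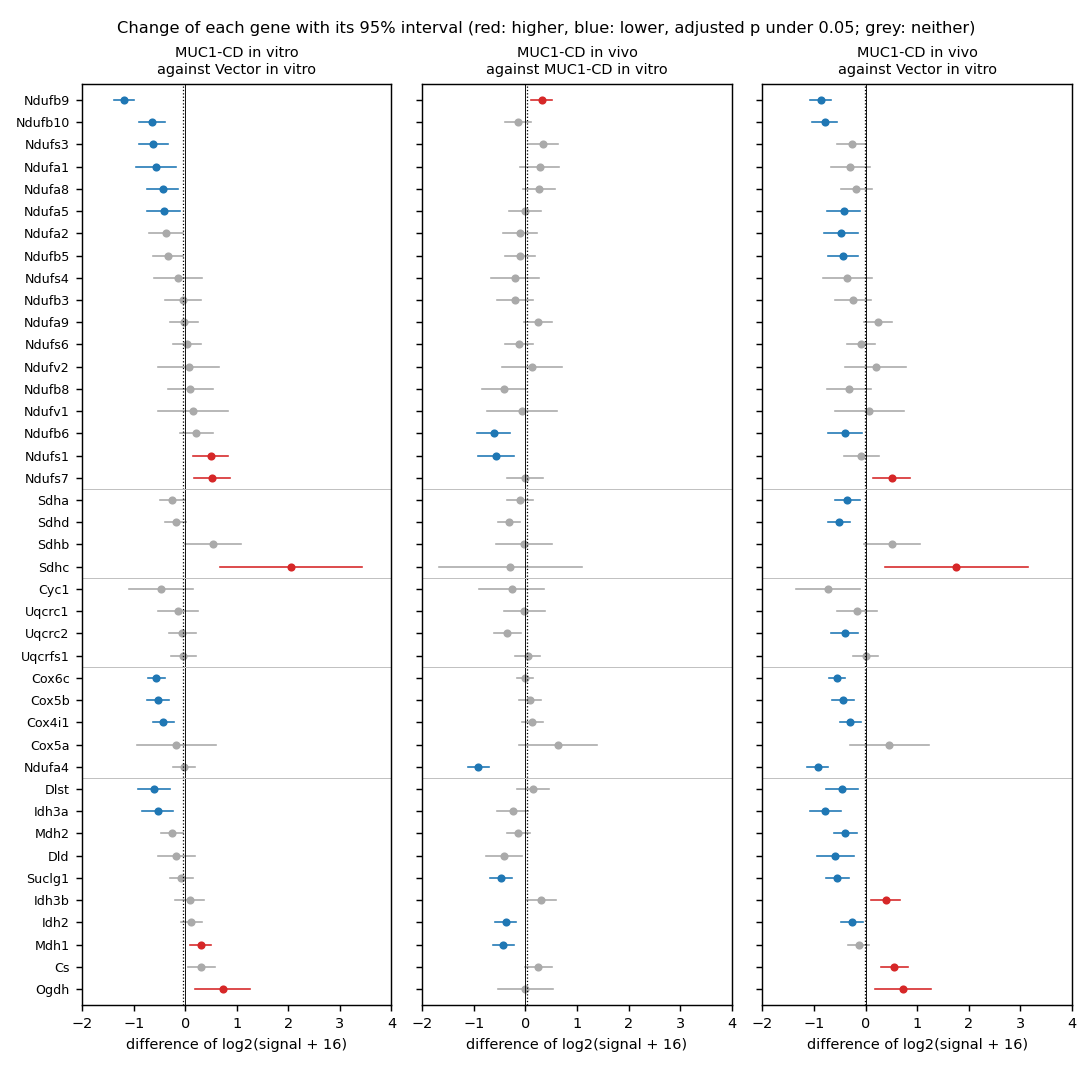
Change of each of the 41 genes in the 3 comparisons as the difference of log2(signal + 16), with 95% intervals; horizontal lines separate complexes I, II, III with cytochrome c, IV and the TCA cycle, and the dotted line is the median of all tested genes. Ndufb9 has the largest fall in MUC1-CD culture (-1.19), Ndufa4 the largest fall in tumors against MUC1-CD culture (-0.91), and the interval of Sdhc is the widest.

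Within complex I, 6 of 18 measured subunits fell in MUC1-CD culture and 2 rose. Ndufb9, an accessory subunit of the membrane arm, read 14799 and 16509 on the Vector arrays, 6824.5 and 6882 on the MUC1-CD in vitro arrays and 8365 and 8724.5 in the tumors. Both MUC1-CD groups lay far below Vector, with the tumors slightly above the MUC1-CD cultures. The change in MUC1-CD culture was -1.19 ± 0.08, a 2.28-fold fall (adjusted p = 0.000132 by limma). Ndufb10, another membrane arm subunit, read 2816.5 and 2778 in Vector, 1788 and 1773 in MUC1-CD culture and 1611 and 1610 in tumors. Replicates differed little, and the groups stood in that order without overlap. Ndufb10 fell by 0.65 ± 0.10 in MUC1-CD culture (adjusted p = 0.00275 by limma).

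Ndufs3, a core subunit of the matrix arm, read 1676 and 1565.5 in Vector, 1056 and 1043 in MUC1-CD culture and 1334 and 1347 in tumors, so that the tumors lay between the 2 cultures. It changed by -0.62 ± 0.12 in MUC1-CD culture (adjusted p = 0.00532 by limma). The call was lost without MUC1-CD in vitro replicate 1 (adjusted p = 0.0519 by limma) or replicate 2 (adjusted p = 0.0587). The accessory subunits Ndufa1, Ndufa5 and Ndufa8 also fell, by 0.57, 0.42 and 0.44 on the log2 scale, at adjusted p = 0.0272 to 0.0381 by limma. All 3 of these calls ended without any 1 of the 4 MUC1-CD arrays (adjusted p = 0.0608 to 0.225), and Ndufa1 and Ndufa8 ran between changes of -0.83 and -0.31 and of -0.59 and -0.29 with 1 array left out. The core subunits Ndufs1 and Ndufs7, which carry iron-sulfur clusters, went the other way.

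Ndufs1, the largest core subunit, read 2010 and 2611 in Vector, 3137 and 3314.5 in MUC1-CD culture and 2198 and 2133 in tumors. Only the MUC1-CD cultures were high, and the tumor values lay within the range of Vector. The rise was 0.49 ± 0.14 (adjusted p = 0.0298 by limma). Ndufs7, which holds the cluster next to the quinone site, read 1718 and 1304 in Vector, 2172 and 2127.5 in MUC1-CD culture and 2114 and 2158 in tumors. Here cultures and tumors of MUC1-CD cells overlapped, above both Vector arrays, with a rise of 0.52 ± 0.15 in culture (adjusted p = 0.0286 by limma). Its promoter is the one shown above with an AAGATGGCG match. Leaving out any of the 4 MUC1-CD arrays ended both calls (adjusted p = 0.0691 to 0.170 for Ndufs1 and 0.0692 to 0.146 for Ndufs7). With 1 array left out the changes ran from 0.30 to 0.68 for Ndufs1 and from 0.32 to 0.71 for Ndufs7, and with arrays divided by their median they were 0.17 and 0.20, neither called.

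In complex II, which oxidizes succinate and belongs to the TCA cycle as well, 1 of 4 subunits rose. Sdhc, a membrane anchor that helps hold the heme, read 2116 and 485 on Vector replicates 1 and 2, 4064 and 4470 in MUC1-CD culture and 3416 and 3535 in tumors. The Vector arrays did not overlap the others, but they differed from each other by 2.09 log2, the largest such difference among the 41 genes, with the lower value on the array of the higher actin ratio. The rise of 2.05 ± 0.58 (adjusted p = 0.0268 by limma) was 1.00 without Vector replicate 2 and 3.10 without Vector replicate 1. Leaving out any 1 of the 4 MUC1-CD arrays took adjusted p to between 0.0583 and 0.125. Sdhb, the iron-sulfur subunit, read 3676 and 2161 in Vector and 3990 and 4248 in MUC1-CD culture and was not called (adjusted p = 0.0934). Sdha, the flavoprotein, and Sdhd, the other anchor, changed by -0.25 ± 0.10 and -0.19 ± 0.09 and were not called.

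In complex III 0 of 4 genes were called by limma, and 0 had an unadjusted p under 0.05. Cyc1, cytochrome c1, read 8141 and 4359 on Vector replicates 1 and 2 and 4401 and 4230 in MUC1-CD culture, so the groups overlapped. The core proteins Uqcrc1 and Uqcrc2 and the Rieske protein Uqcrfs1 differed by at most 0.14 in size. Their 95% intervals ran from -0.54 to 0.25, -0.32 to 0.20 and -0.29 to 0.21.

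Cytochrome c oxidase, complex IV, had falls in 3 of 5 genes. Cox6c, a small membrane subunit, read 19588.5 and 20425 in Vector, 13720 and 13430 in MUC1-CD culture and 13458 and 13657 in tumors. The MUC1-CD cultures and tumors overlapped, and all 4 lay below Vector, with a fall of 0.56 ± 0.07 in culture (adjusted p = 0.000838 by limma), or a change of -0.26 after quantile normalization (adjusted p = 0.0184). Cox5b, whose promoter above holds CCGGAAG before the start, read 4941 and 4948, 3392 and 3457 and 3558 and 3743 in the same order of groups. Again both MUC1-CD groups lay below Vector, by 0.53 ± 0.09 in culture (adjusted p = 0.00372 by limma). Cox4i1, the subunit that binds ATP, read 14660 and 15511 in Vector, 10955 and 11425 in MUC1-CD culture and 11603 and 13041 in tumors. Its fall of 0.43 ± 0.08 (adjusted p = 0.00679 by limma) missed the threshold without MUC1-CD in vitro replicate 1 (adjusted p = 0.0645) and was -0.18 after quantile normalization (adjusted p = 0.0671). Ndufa4, first described with complex I and now assigned to complex IV, read 9126 and 10232 in Vector and 9352.5 and 9710 in MUC1-CD culture, a difference of -0.02 ± 0.09 with a 95% interval of -0.23 to 0.19.

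The TCA cycle list, which counts the cytosolic Mdh1, had 2 rises and 2 falls among 10 measured genes. Ogdh, the first enzyme of the 2-oxoglutarate dehydrogenase complex, read 1095 and 667 in Vector, 1442 and 1407 in MUC1-CD culture and 1371 and 1478 in tumors. The Vector arrays were apart from each other and both below the rest, a rise of 0.73 ± 0.23 (adjusted p = 0.0368 by limma). Dlst, the second enzyme of the same complex, went down, from 1997 and 1795 to 1239 and 1241, or -0.60 ± 0.13 (adjusted p = 0.00916 by limma). Idh3a, the catalytic subunit of NAD-dependent isocitrate dehydrogenase, fell from 1070 and 1090.5 to 758 and 719.8, or -0.54 ± 0.13 (adjusted p = 0.0131 by limma). Mdh1, the cytosolic malate dehydrogenase of the malate-aspartate shuttle, read 6341 and 6292 in Vector, 7552 and 8000.5 in MUC1-CD culture and 5955 and 5580 in tumors.
The MUC1-CD cultures were the high group, by 0.30 ± 0.08 (adjusted p = 0.0268 by limma), a direction that turned to -0.026 when arrays were divided by their median and to -0.17 over the mean of its probe sets. Leaving out any of the 4 MUC1-CD arrays ended the calls of Ogdh (adjusted p = 0.0769 to 0.156) and Mdh1 (0.0599 to 0.196), and the rise of Ogdh was 0.37 without Vector replicate 2. The falls of Dlst and Idh3a ended without either MUC1-CD in vitro array, at adjusted p of up to 0.0738 for Dlst and 0.115 for Idh3a. Dld, the third enzyme of the complex, Cs, Idh2, Idh3b, Mdh2 and Suclg1 were not called.

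**Figure D2:**
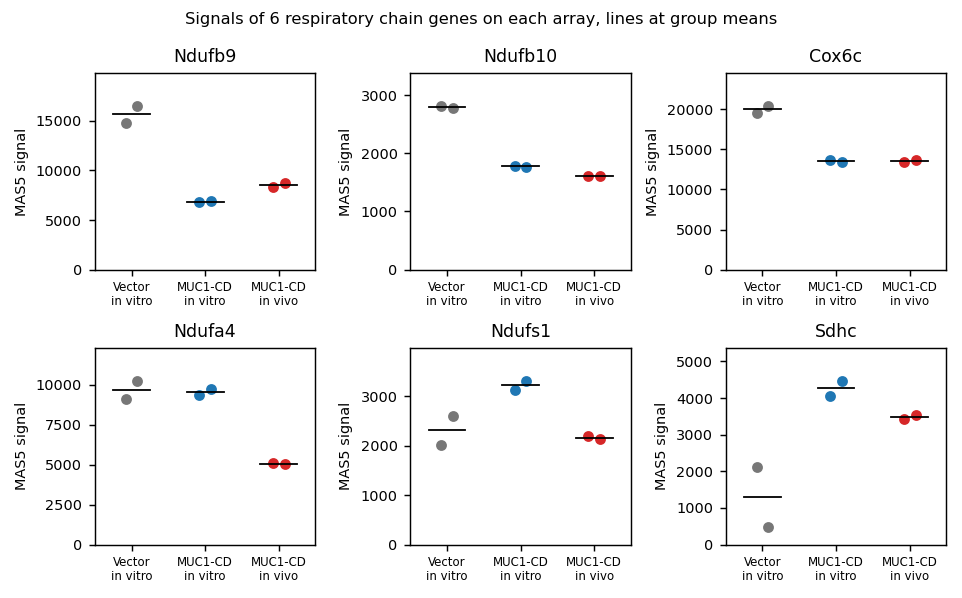
MAS5 signals of 6 genes on each of the 6 arrays, with a line at each group's mean and the vertical axis starting at 0. Ndufb9, Ndufb10 and Cox6c are high in both Vector arrays, Ndufa4 is low in both tumor arrays, Ndufs1 is high in both MUC1-CD cultures, and the Vector arrays of Sdhc lie far apart at 2116 and 485.

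Calls moved with the arrays used, for all tested genes as well as for the 41. Leaving out 1 array leaves 1 in its group, so counts of genes called in such fits are not interpreted and appear only as ranges, with the other settings at the end. Of the 5 rises and the 6 falls of smallest p, the falls of Ndufb9, Cox6c, Ndufb10 and Cox5b stayed called whichever array was left out, and none of the rises did. Dividing each array by its median signal lowered the change of the median tested gene to -0.35, and then 1 of the 41 genes was higher and 22 lower (13.1% and 39.3% of all genes). The median of the 41 genes minus that of all genes was -0.11 as deposited and -0.12 after that division, but -0.18 with all probe sets of a gene averaged, -0.029 after quantile normalization, -0.055 without Vector replicate 1, -0.071 without MUC1-CD in vitro replicate 2 and -0.040 without its replicate 1.

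Tumors of MUC1-CD cells were compared with the same cells in culture to ask what differs with growth in the mouse. Falls prevailed: 6 of the 41 genes fell and 1 rose, or 17.1%, against 18.8% of all tested genes (9.82% higher and 8.97% lower). The falls were Ndufa4 of complex IV, Ndufb6 and Ndufs1 of complex I, and Suclg1, Idh2 and the cytosolic Mdh1 of the TCA cycle list. The rise was Ndufb9. The median change was -0.10, against 0.03 for all tested genes. The median of the 41 genes minus that of all genes was -0.14 as deposited and -0.052 after quantile normalization. Both tumor arrays lay below both cultures for 20 genes and above both for 11, against 35% and 40% of all genes. In bulk tumors, fewer cells of a type and less RNA per cell cannot be told apart.

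Ndufa4 had the largest fall, and its values of 5094 and 5017 in tumors lay well below the 9352.5 and 9710 of the cultures. The change was -0.91 ± 0.09, 1.88-fold (adjusted p = 0.00128 by limma), and it held under every alternative tried, with values of -1.18 to -0.89. Its promoter, shown above, had no match to the 3 motifs. Suclg1, a subunit of succinyl-CoA synthetase, read 3931 and 4081.5 in culture and 2824 and 2942 in tumors, against 4182 and 4249.5 in Vector. The tumors were clearly the lowest, below MUC1-CD culture by 0.47 ± 0.09 (adjusted p = 0.0181 by limma). Idh2, the mitochondrial NADP-dependent isocitrate dehydrogenase, read 5567.5 and 5898 in Vector, 6320 and 6110 in MUC1-CD culture and 4678 and 4872 in tumors. It was again lowest in tumors, by 0.38 ± 0.09 against MUC1-CD culture (adjusted p = 0.0302 by limma).

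Mdh1 and Ndufs1, which had risen in MUC1-CD culture, fell in tumors by 0.43 ± 0.08 and 0.57 ± 0.14 (adjusted p = 0.0188 and 0.0409 by limma). Ndufb6, a membrane arm subunit of complex I, read 3690 and 4826 in Vector, 4884 and 4922 in MUC1-CD culture and 3244.5 and 3137 in tumors. One Vector array nearly met the MUC1-CD cultures, while the tumors were below all cultures, by 0.62 ± 0.14 against MUC1-CD culture (adjusted p = 0.0279 by limma). Ndufb9 was 0.32 ± 0.08 higher in tumors (adjusted p = 0.0484 by limma), without regaining the Vector level. The calls of Suclg1, Mdh1, Ndufb6, Idh2, Ndufs1 and Ndufb9 were each lost when any 1 of the 4 MUC1-CD arrays was left out. Far fewer of all tested genes were called in those fits too, so the losses are not particular to these genes. With 1 array left out the changes kept their direction. They ran from -0.50 to -0.44 for Suclg1, -0.48 to -0.38 for Mdh1 and -0.64 to -0.59 for Ndufb6. For Idh2 they ran from -0.41 to -0.35, for Ndufs1 from -0.61 to -0.53 and for Ndufb9 from 0.29 to 0.35. Ndufb9, Ndufs1 and Mdh1 were the 3 genes called in opposite directions in the 2 comparisons, which share the MUC1-CD in vitro arrays. No gene was lower in both or higher in both. The share of all tested genes with either pattern is not given here, so neither is read as a trait of these genes.

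The spread of the Vector arrays entered the test above, since all 6 arrays shared 1 estimate of error. Fitted on the 4 MUC1-CD arrays alone, 8 genes were higher in tumors and 13 lower, against 47.7% of all genes called (25.1% higher and 22.6% lower), and all 7 genes called above were among them. In that fit the 5 higher genes of complex I were Ndufa1, Ndufa8, Ndufa9, Ndufb9 and Ndufs3, with changes of 0.25 to 0.35. The other higher genes were Cox5a of complex IV (0.63), and Cs (0.25) and Idh3b (0.30) of the TCA cycle list. Its 13 lower genes spanned all groups. They were Ndufb3, Ndufb6, Ndufb8 and Ndufs1 of complex I, Sdhc and Sdhd of complex II, and Uqcrc2 and Cyc1 of complex III. The others were Ndufa4 of complex IV, and Idh2, Dld, Suclg1 and Mdh1 of the TCA cycle list. With all 6 arrays, the median of the 41 genes minus that of all genes was -0.14. It was -0.13 without Vector replicate 1 or replicate 2, and -0.10 to -0.14 without any 1 of the 4 MUC1-CD arrays. Fewer of all tested genes were called in the fits without a MUC1-CD array, and more in the fits without a Vector array. Dividing arrays by their median shifted the median tested gene to -0.23 and gave 0 higher and 13 lower by limma (6.15% and 20.9% of all genes; 19 of the 41 at an unadjusted p under 0.05). Ndufb9's rise in tumors was then 0.046.

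Markers of other cell types were higher on the tumor arrays, and their part in the falls was not tested. The filter used the mean over all arrays, so a marker of low signal in culture was tested only if tumors raised that mean. Aif1, C1qa, C1qb, C1qc, Cd68, Coro1a, Acta1, Atp2a1, Ckm, Myl1, Tnnc2, Flt1, Tek and Hbb lay below the filter on every culture array. The shares of tested markers called higher in tumors were therefore partly set by the filter and describe the tested markers only. Of 11 tested skeletal muscle markers 9 were higher in tumors than in MUC1-CD culture and 1 lower, and the summed signal of the 16 measured was 13861 to 14687 in tumors, 5277 to 5322.5 in MUC1-CD culture and 18216 to 18999 in Vector culture. Myh1 and Tnnc1 made up most of the Vector sum, at 9779 to 10297 and 7337 to 8681. Acta1, the skeletal muscle actin, went from 3.7 and 5.1 in MUC1-CD culture to 5854.5 and 4971 in tumors, while Mybpc1 stayed near 0 in each group (2.9 to 8.2). The muscle forms of respiratory subunits stayed low: Cox6a2, Cox8b and the mitochondrial creatine kinase Ckmt2 were below the filter, with at most 75.4 on any array, and Cox7a1 read 100.2 and 100.8 in MUC1-CD culture and 98.5 and 106.6 in tumors. Of 11 tested macrophage markers 8 were higher in tumors and 0 lower, with sums over 17 genes of 7909 to 7960, against 3325.5 to 3539 in MUC1-CD culture and 1111 to 1242 in Vector. Cd14 made up most of the MUC1-CD culture sum, at 2828 and 3052, and read 3248 and 3289 in tumors and 593.6 and 463.8 in Vector. Cd163 read 115.1 and 144.7 in MUC1-CD culture and 102 and 121.8 in tumors. Neither was called in tumors against MUC1-CD culture. Adgre1, a defining macrophage marker, read 15.7 and 16 in tumors, and Itgam 11.7 and 31.1. Erythroid markers summed to 3431 to 3532 in tumors and 83.4 to 180 in culture, nearly all from Hbb. Endothelial markers summed to 967.5 to 1067 in tumors and 426.1 to 507.1 in culture, with 2 of 3 tested higher and Pecam1 at 17.8 and 27.5 in tumors. Flt1 alone read 381.9 and 434.4 in tumors, against 58.5 and 58.8 in MUC1-CD culture. Egfl7 went from 226.2 and 322 in MUC1-CD culture to 148.3 and 205.3 in tumors, not called. Vwf, below the filter, went from 24.3 and 21.1 to 9.7 and 10.2.

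**Figure D3:**
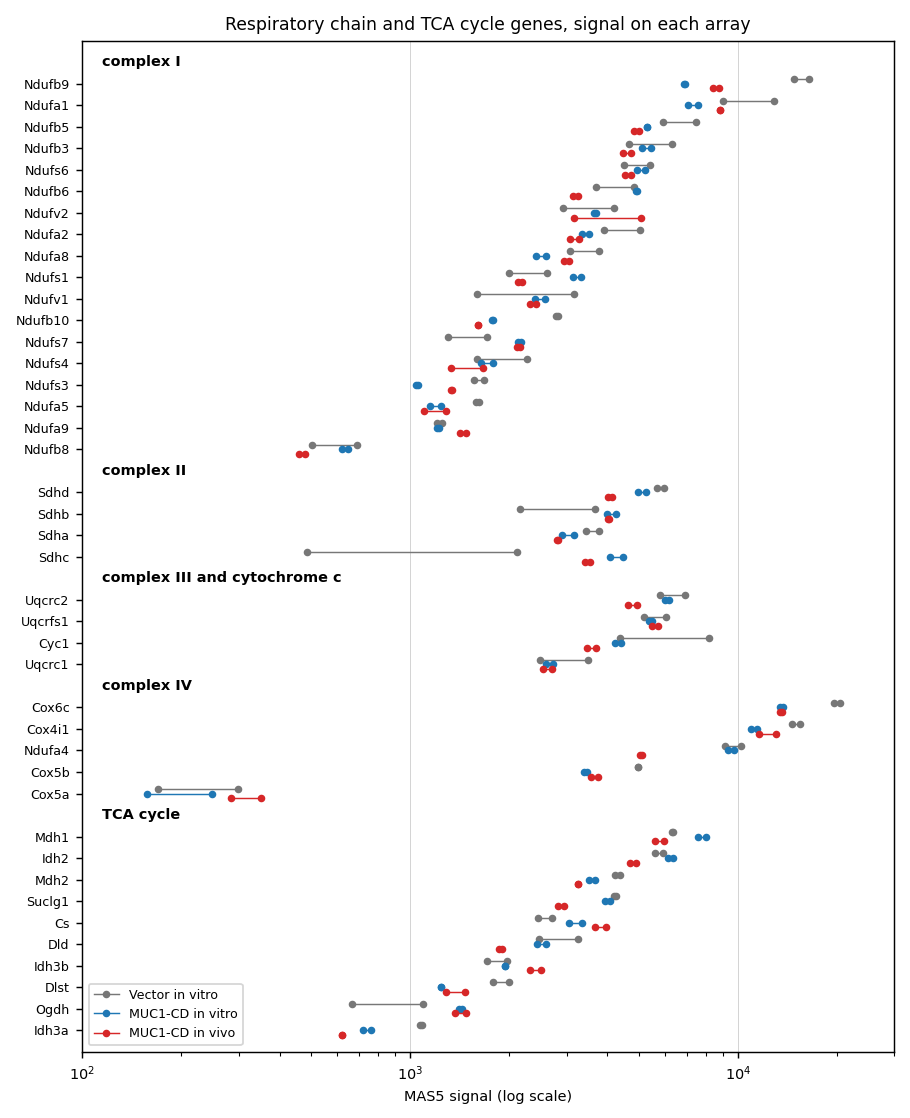
MAS5 signals of the 41 genes on a log axis, with 1 point for each array and a line joining the 2 arrays of a group; signals of different genes are not comparable. The lines of the Vector group are the longest for Sdhc, Ndufv1 and Cyc1, and the tumor points of Ndufa4 at 5094 and 5017 lie clear of the other 4.

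Tumors against Vector culture combined both differences and used the same tumor and Vector arrays as above, so these values are set beside the others and are not further evidence for them. Here 19 of the 41 genes fell and 5 rose, or 58.5%, against 51.4% of all tested genes (24.8% higher and 26.6% lower). The median change was -0.29, against -0.02 for all tested genes, and 25 genes were separate and lower, 7 separate and higher (38.6% and 37% of all genes). After quantile normalization 13 genes were lower and 5 higher by limma, against 29.3% and 23% of all genes. The median of the 41 genes minus that of all genes was -0.28 as deposited and -0.11 after quantile normalization. As deposited, falls were counted in 6 of 18 genes of complex I, 2 of 4 of complex II and 1 of 4 of complex III. They were counted in 4 of 5 genes of complex IV and 6 of 10 of the TCA cycle. The 6 with the smallest adjusted p were Ndufa4 (-0.93 ± 0.09), Ndufb9 (-0.87 ± 0.08), Cox6c (-0.56 ± 0.07), Ndufb10 (-0.79 ± 0.10), Idh3a (-0.78 ± 0.13) and Suclg1 (-0.55 ± 0.09), at adjusted p = 0.000278 to 0.00299 by limma. Each of those 6 kept its direction and its call under all 16 alternatives. The other 13 falls, of -0.26 to -0.59, were those of Ndufa2 (-0.48 ± 0.14), Ndufa5, Ndufb5 (-0.43 ± 0.12) and Ndufb6 of complex I, Sdha and Sdhd of complex II, Uqcrc2 of complex III, Cox4i1 and Cox5b of complex IV, and Dld, Dlst, Idh2 and Mdh2 of the cycle. Ndufa2, an accessory subunit, read 3910 and 5031 in Vector, 3516 and 3346 in MUC1-CD culture and 3067 and 3281 in tumors, and Ndufb5, another, 5919 and 7455, 5279.5 and 5286 and 4827 and 4997, so that each group of both genes lay below the one before. Of the 13, Sdhd stayed called whichever array was left out, Cox5b was lost without tumor replicate 1, Dld and Mdh2 without either tumor array, Cox4i1 without tumor replicate 1 or either MUC1-CD in vitro array, and the other 8 without any 1 of the 4 MUC1-CD arrays, at adjusted p of up to 0.217.

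Idh3a stepped down over the groups, from 1070 and 1090.5 in Vector through 758 and 719.8 in MUC1-CD culture to 619 and 622 in tumors, without overlap between any of them. Its partner Idh3b, a regulatory subunit, read 1974 and 1719, 1950 and 1953 and 2329 and 2503, with the cultures overlapping and the tumors above them. Cs, citrate synthase, which forms citrate from acetyl-CoA and oxaloacetate, was also higher in each later group, at 2717 and 2456, 3344 and 3061 and 3668 and 3956.5. Neither neighbouring step of Cs was called (adjusted p = 0.0592 and 0.175), while tumors exceeded Vector by 0.56 ± 0.11 (adjusted p = 0.00581 by limma). The call of Cs was lost without MUC1-CD in vivo replicate 2 (adjusted p = 0.0610). The other rises were those of Ndufs7 (0.51 ± 0.15), Ogdh (0.72 ± 0.23), Sdhc (1.76 ± 0.58) and Idh3b (0.39 ± 0.12), at adjusted p = 0.0276 to 0.0412. Those 4 calls were lost without any 1 of the 4 MUC1-CD arrays, at adjusted p of up to 0.185. When arrays were divided by their median, which put the median tested gene at -0.60, Cs turned to -0.037, Ndufs7 to -0.084 and Idh3b to -0.21, and 0 genes were higher and 32 lower by limma (12.2% and 53.9% of all genes; 32 of the 41 at an unadjusted p under 0.05). The median of the 41 genes minus that of all genes was -0.33 without Vector replicate 1 and -0.25 without its replicate 2. It was -0.27 without either MUC1-CD in vitro array, -0.23 without tumor replicate 1 and -0.28 without tumor replicate 2. The rise of Sdhc was 2.80 without Vector replicate 1 and 0.71 without its replicate 2, and that of Ogdh 0.37 without Vector replicate 2.

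In 12 genes no comparison was called in the fit to all 6 arrays. The share of all tested genes without a call is not given here. The 12 were Ndufa9, Ndufb3, Ndufb8, Ndufs4, Ndufs6, Ndufv1 and Ndufv2 of complex I, Sdhb of complex II, Uqcrc1, Uqcrfs1 and Cyc1 of complex III, and Cox5a of complex IV. In the fit to the 4 MUC1-CD arrays alone, 5 of these were called in tumors against culture: Ndufa9 and Cox5a higher, and Ndufb3, Ndufb8 and Cyc1 lower. Uqcrfs1 differed least between groups, at 6025 and 5157 in Vector, 5482.5 and 5358 in MUC1-CD culture and 5468 and 5699 in tumors, and the 3 groups overlapped. Ndufv1, which binds NADH and FMN, read 3156 and 1605.5 on the Vector arrays, around the 2411 and 2573 and 2420 and 2328 of the other groups. Its SE was 0.28, so changes of up to 0.82 in size lay within the 95% interval in MUC1-CD culture. Cox5a was read on a probe set of low signal, with 170.0 and 298 in Vector, 157 and 249 in MUC1-CD culture and 352 and 284 in tumors.

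Other probe sets of 5 genes did not always follow the one used. Cs had 3 more: one rose by 0.94 and another by 1.79 in MUC1-CD culture (adjusted p = 0.00182 and 0.0145 by limma). The remaining probe set of Cs read 30.3 and 61.9 in Vector, 30.6 and 42.1 in MUC1-CD culture, and 1016.5 and 1003 in tumors. That is a rise of 4.30 in tumors against culture (adjusted p = 0.000349 by limma), against 0.25 on the probe set used. Mdh1 had 1 more, of low signal, with -0.63 in MUC1-CD culture and -0.67 in tumors against it, neither called, and a fall of 1.31 in tumors against Vector. For Sdhd, the other probe set rose by 0.45 in MUC1-CD culture (adjusted p = 0.0270 by limma), opposite to -0.19 on the one used. Uqcrc2's second probe set changed by 1.06 in MUC1-CD culture without being called (adjusted p = 0.0956), and that of Ndufa9 was below the filter.

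The rest of the pathway was read on 117 tested genes from lists of further subunits, enzymes, assembly factors and regulators. In MUC1-CD culture 19 of them rose and 30 fell (41.9%), in tumors against culture 5 rose and 11 fell (13.7%), and in tumors against Vector 16 rose and 31 fell (40.2%). The background is that of all genes given above. Under division by the array median, Vdac1 of the genes called in MUC1-CD culture, Ndufb11, Atp5mc3, Atp5me, Sdhaf1, Uqcc2 and Gabpb1 of those called in tumors against Vector, and none of those called in tumors against culture changed direction. Quantile normalization turned none of them.

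Further subunits of complexes I, III and IV were read on the same arrays. Of 16 more complex I subunits 6 fell and 1 rose in MUC1-CD culture. Ndufa6, an accessory subunit of the matrix arm, fell furthest, from 9513 and 11363 to 3304 and 3162 and 3683 and 3429 in tumors. Both MUC1-CD groups lay far under Vector, with a change in culture of -1.68 ± 0.11 (adjusted p = 0.000113 by limma). Ndufa12 and Ndufa13 fell by 0.64 and 0.54. In complex III 1 of 4 fell, Uqcr11, by 0.74 ± 0.12. Complex IV had 3 falls among 6: Cox6a1, a membrane subunit, from 10249.5 and 9461 to 4563 and 4395 (-1.13 ± 0.09, adjusted p = 0.000179 by limma), Cox8a by 0.56 and Cox7a2l by 0.51. Against MUC1-CD culture, 0 of these subunits of complexes I, III and IV were called in tumors by limma (4, 0 and 1 at an unadjusted p under 0.05). ATP synthase, the complex that makes ATP from the gradient, had 1 rise, Atp5f1d (2383 and 1146 on Vector replicates 1 and 2, 3436 and 3631 in MUC1-CD culture), and 2 falls, Atp5pd and Atp5mg, among 14, and 0 calls in tumors against culture by limma (1 at an unadjusted p under 0.05).

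Of 8 further subunits of the cycle's enzymes, pyruvate dehydrogenase and the pyruvate carrier, 0 rose and 1 fell (Suclg2) in MUC1-CD culture by limma, with a median of -0.03 and 1 at an unadjusted p under 0.05, and 0 rose and 1 fell in tumors against culture. The latter was Pdhb, the beta subunit of pyruvate dehydrogenase, which fell by 0.54 (adjusted p = 0.0259 by limma). Among 8 pyruvate dehydrogenase kinases, phosphatases and lactate dehydrogenases, which set how much pyruvate enters, 4 rose and 1 fell in MUC1-CD culture, and 1 rose and 4 fell in tumors against culture. Both comparisons use the MUC1-CD in vitro arrays, so opposite directions in them are not separate evidence, here and for the enzymes that follow. Pdk4, a kinase that switches pyruvate dehydrogenase off, read 307 and 353 in Vector, 641 and 661 in MUC1-CD culture and 309.7 and 293 in tumors. The cultures of MUC1-CD cells alone were high, with changes of 0.95 ± 0.15 and then -1.07 ± 0.15 (adjusted p = 0.00290 and 0.00592 by limma). The phosphatase Pdp2, which acts against the kinases, followed the same course, at 281.5 and 218, 542.5 and 583 and 282 and 261, and so did Ldhb, the heart form of lactate dehydrogenase, at 372 and 317, 801.5 and 708 and 276 and 244. Pdk2, another kinase, was the reverse, at 409.9 and 324 in Vector, 101 and 75.4 in MUC1-CD culture and 229 and 197 in tumors. Its changes were -1.88 ± 0.22 and 1.15 ± 0.22 (adjusted p = 0.000837 and 0.0173 by limma). Pdp1 rose by 1.09 in MUC1-CD culture and Ldha fell by 0.37 in tumors.

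Of 12 enzymes and carriers that feed or drain the cycle, 7 rose and 1 fell in MUC1-CD culture, and 0 rose and 4 fell in tumors against culture. Idh1, the cytosolic NADP-dependent isocitrate dehydrogenase, read 2938 and 3637 in Vector, 4699 and 4349 in MUC1-CD culture and 2051.5 and 1981.5 in tumors. Tumors were the lowest group, with -1.16 ± 0.13 against culture (adjusted p = 0.00228 by limma). Acly, which makes cytosolic acetyl-CoA from citrate, fell by 1.09 and the malic enzyme Me1 by 1.28 (adjusted p = 0.00421 and 0.00274 by limma). Glud1, glutamate dehydrogenase, was the fall in MUC1-CD culture, from 7174.5 and 6110.5 to 3208 and 2942 and 2839 and 2730 in tumors. Got2, the mitochondrial aspartate aminotransferase, rose by 1.27 ± 0.28 in MUC1-CD culture, against Vector arrays at 5911 and 3044. The 4 lower calls in tumors became 7 when arrays were divided by their median, and the 7 rises in MUC1-CD culture became 2.

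**Figure D4:**
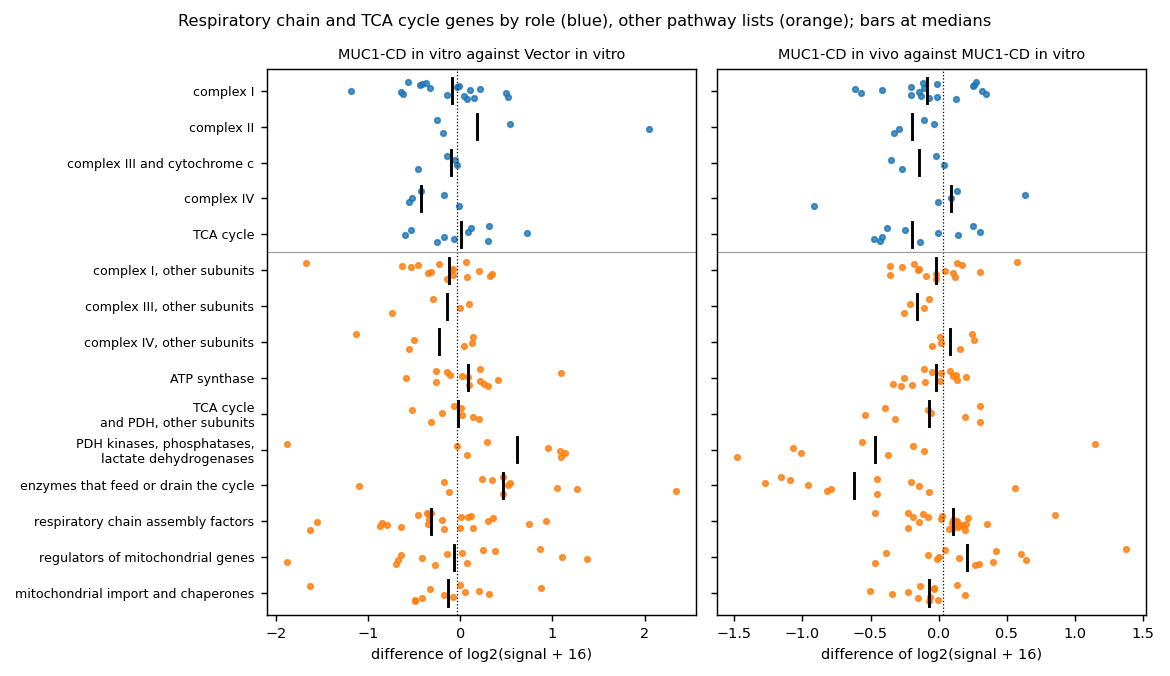
Change of each gene as the difference of log2(signal + 16), grouped by role, in MUC1-CD culture against Vector (left) and tumors against MUC1-CD culture (right); thick bars are medians and the dotted line is the median of all tested genes. The lists of pyruvate dehydrogenase regulators with lactate dehydrogenases and of feeding enzymes have medians of 0.62 and 0.47 at left and -0.47 and -0.62 at right.

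Of 23 assembly factors 7 fell and 2 rose in MUC1-CD culture, or 39.1% called and 30.4% lower, against 46.1% and 24.9% of all genes, and with arrays divided by their median 13 fell and 1 rose. Among the falls were Cox14, from 7058.5 and 7513 to 2423 and 2515, and Cox15 and Cox19, which fell by 0.85 and 0.88. In tumors the only call was Sdhaf1, an assembly factor of complex II, which rose from 569 and 557 to 1033 and 1034 (0.86 ± 0.13, adjusted p = 0.00652 by limma). Of 14 regulators of mitochondrial genes 2 rose and 5 fell in MUC1-CD culture. Esrra, a nuclear receptor that binds PGC-1 coactivators, rose from 267.5 and 168 to 501 and 664, and Tfb1m by 1.11, while Polg2, a subunit of the mitochondrial DNA polymerase, fell from 708 and 838 to 214 and 180.1. In tumors 3 rose and 0 fell by limma: Ppargc1b, a PGC-1 coactivator, from 101 and 96.8 to 269 and 297 (1.38 ± 0.31, adjusted p = 0.0277), Gabpb1 by 0.61 and Polg by 0.64. With arrays divided by their median 1 rose and 2 fell, and Gabpb1 (0.34, adjusted p = 0.155) and Polg (0.38, adjusted p = 0.154) were not called. Of 12 import and chaperone genes, 3 fell and 2 rose in MUC1-CD culture. Tomm22, a receptor of the outer membrane import pore, fell from 8965 and 8964 to 2931 and 2812 and 2502 and 2719 in tumors, and the chaperones Hspd1 and Hspe1 by 0.42 and 0.49.

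Some of the furthest falls in MUC1-CD culture lay on chromosome 7 of the GRCr8 assembly, a grouping looked at after the values were seen and given without a test. The 656 tested genes of chromosome 7 had a median change of -0.65, and 52.9% of them fell and 11% rose. Of the 5 respiratory chain and TCA cycle genes there, Ndufb9 and Cox6c fell, Ndufs7 rose, and Cyc1 and Cs were not called. Of 9 other pathway genes there 6 fell (Ndufa6, Ndufa12, Uqcr11, Cox14, Tomm22 and, named after its value was seen, Polrmt) and Atp5f1d rose. On the other chromosomes 9 of 36 respiratory chain and TCA cycle genes fell and 4 rose, with a median of -0.11, and 24 of 108 other pathway genes fell and 18 rose. In tumors against MUC1-CD culture the chromosome 7 genes had a median of 0.10.

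**Figure D5:**
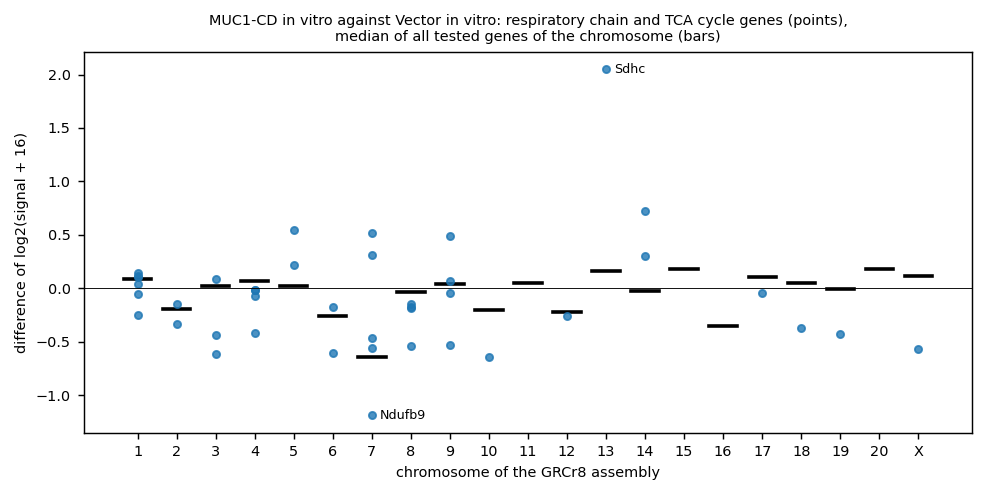
Change in MUC1-CD culture against Vector culture (difference of log2(signal + 16)) of each respiratory chain and TCA cycle gene by its chromosome on GRCr8, with a bar at the median of all tested genes of the chromosome. The bar of chromosome 7 lies lowest, at -0.65, with Ndufb9 at -1.19 below it.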

How the data were processed

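RNA of 6 cultures and tumors was hybridized to 1-colour Affymetrix rat arrays. The deposited values are MAS5 signal intensities on a linear scale, 1 per probe set and array, per the submitters' processing notes; the version of MAS5 was not given in the sources used here, and 0 columns of samples were left unused. The values were kept as deposited, without further normalization. Of 31099 probe sets, 57 controls and those with a mean signal under the 40th percentile (61.6) were left out, and 18625 were tested on log2(signal + 16) with limma 3.58.1 in R 4.3.3, with all 6 arrays, 3 groups, a mean-variance trend and Benjamini-Hochberg adjustment over all tested probe sets. The residual spread had 3 degrees of freedom. Names came from the platform annotation, updated through RefSeq. Figures were drawn with matplotlib 3.10.9.

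The genes and lists were chosen with earlier results of these data known. Every gene of the list is accounted for, and per-array values were given for up to 6 genes each way with the smallest adjusted p in each comparison and for genes called in opposite directions, with Ndufa2 and Ndufb5 added after their values were seen. From each other list, up to 3 called genes of smallest p per comparison could be named, with exceptions marked. The script was tested on simulated data. Replicate numbers were not shown to pair arrays: deviations of same-numbered arrays correlated at -0.018 to -0.045 over probe sets. Alternatives were pseudocounts of 1 and 64, no filter and a 60th percentile filter, division by the array median and quantile normalization. Others were no trend, the arrays of 2 groups alone, the replicate number as a block, the mean over probe sets and leaving out each array. Changes of single genes with 1 array left out are given for the respiratory chain and TCA cycle genes only.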

Additional observations from a re-analysis of the deposited data

How the results depend on the processing

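The 29 changes named from the 41 genes were recomputed under 16 alternatives, or 464 values, of which 106 lost the call and 5 changed direction; 11 of the 29 kept direction and call throughout. The reversals came with division of arrays by their median (Mdh1 in MUC1-CD culture, -0.026, and, in tumors against Vector, Cs, -0.037, Ndufs7, -0.084, and Idh3b, -0.21) and with the mean of all probe sets (Mdh1 in MUC1-CD culture, -0.17). Counts are given as higher and lower, by limma. In MUC1-CD culture against Vector (5 and 11) they were 3 and 11 with no filter and 1 and 22 with median division. They were 1 and 7 without the mean-variance trend and 0 and 8 on the arrays of the 2 groups alone. For all genes the shares were 18.7% and 22.1% with no filter and 13.1% and 39.3% with median division. Without the trend they were 19.5% and 22.7%, and on the 2 groups alone 16.8% and 20.5%. In tumors against culture (1 and 6) the count of higher genes was 0 with a pseudocount of 1 or no filter and 2 with the mean of probe sets. Of all genes, 8.73%, 7.91% and 10.9% were higher in those settings. The pairs were 0 and 13 with median division, 0 and 1 without the trend and 8 and 13 on the 2 groups alone. The matching shares of all genes were 6.15% and 20.9%, 8.35% and 6.61%, and 25.1% and 22.6%. In tumors against Vector (5 and 19) counts were 0 and 32 with median division, 1 and 11 without the trend and 1 and 10 on the 2 groups alone. There the shares of all genes were 12.2% and 53.9%, 23.4% and 23.9%, and 20% and 21.2%. Median division moved the median changes to -0.47, -0.37 and -0.89, along with those of all genes (-0.35, -0.23 and -0.60). Quantile normalization gave 6 and 10, 1 and 6, and 5 and 13. The shares of all genes were then 20.3% and 25.6%, 9.6% and 10.3%, and 23% and 29.3%. With the replicate block, the counts were 5 and 10, 0 and 4, and 4 and 17. Shares of all genes with that block were 20.4% and 23.7%, 8.29% and 7.31%, and 24.1% and 25.2%. Leaving out 1 array gave 0 to 9 higher and 4 to 18 lower in MUC1-CD culture, 0 to 8 and 1 to 13 in tumors against culture, and 0 to 8 and 7 to 25 in tumors against Vector. In all 3 comparisons the share of all tested genes called was larger without either Vector array than with all 6 arrays. That share was smaller without any 1 of the 4 MUC1-CD arrays. The counts of the 41 genes moved the same way, so the ranges with 1 array left out are not read as a trait of these genes. Why the counts moved between settings was not tested. With 2 arrays a group, the number of arrays limits the precision.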
